A study of Homo sapiens with 8 samples.

Results

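The prostaglandin genes described here are 10 genes selected by symbol from the 28265 genes of the factory RNA-Seq count tables: the cyclooxygenases PTGS1 and PTGS2, the prostaglandin E synthases PTGES, PTGES2 and PTGES3, the prostacyclin synthase PTGIS, the receptors PTGER2, PTGER4 and PTGFR, and the breakdown enzyme HPGD. The family was picked because PTGIS is among the genes with the largest decrease in MetaICM, so the MetaICM values of PTGIS are given as a description and were not tested. Factory RNA-Seq reads RNA held at the sites of transcription, and the counts used here are read pairs on exons. All libraries come from low passage IMR90, a line of human fetal lung fibroblasts, and the labels name no genetic change in any group. The 4 conditions, with 2 libraries each, are control cells (titled young), cells given ICM for 3 days, cells given ICM for 6 days, and cells labelled MetaICM. ICM is inflachromene, a small molecule that binds the chromatin proteins HMGB1 and HMGB2. What the MetaICM treatment consists of, and for how long it was given, is stated neither in the labels nor in the methods. The labels also give no day for the control libraries. The labels do not say whether the libraries of a condition come from separate cultures, so the p-values below measure the spread between these libraries, which may be technical.

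Prostaglandins are short-lived lipid signals made from arachidonic acid, which phospholipases free from membranes. Cyclooxygenase turns arachidonic acid into the unstable prostaglandin H2, and dedicated synthases then make prostaglandin E2, prostacyclin, prostaglandin D2, prostaglandin F2 alpha or thromboxane from it. These act on neighbouring cells through G protein-coupled receptors. Lung fibroblasts are known as a source of prostaglandin E2 and prostacyclin, and prostaglandin E2 acting on receptors that raise cyclic AMP is known to restrain fibroblast growth and collagen production.

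The promoters of PTGS2 and PTGER2 are shown because these are the genes of the set with the widest swings in opposite directions among the treated conditions. Each sequence holds the 250 bases before and the 50 bases from the annotated start (RefSeq, GRCh38.p14), read 5′ to 3′ on the gene's strand, chr1:186680374-186680673 on the minus strand for PTGS2 and chr14:52314062-52314361 on the plus strand for PTGER2. Capitals mark matches to any of the short motifs searched.
PTGS2: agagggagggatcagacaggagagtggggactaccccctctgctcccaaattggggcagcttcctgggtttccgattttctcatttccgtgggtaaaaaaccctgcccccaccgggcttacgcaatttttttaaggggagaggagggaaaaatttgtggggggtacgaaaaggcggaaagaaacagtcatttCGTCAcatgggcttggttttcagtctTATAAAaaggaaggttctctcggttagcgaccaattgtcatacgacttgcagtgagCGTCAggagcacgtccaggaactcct
PTGER2: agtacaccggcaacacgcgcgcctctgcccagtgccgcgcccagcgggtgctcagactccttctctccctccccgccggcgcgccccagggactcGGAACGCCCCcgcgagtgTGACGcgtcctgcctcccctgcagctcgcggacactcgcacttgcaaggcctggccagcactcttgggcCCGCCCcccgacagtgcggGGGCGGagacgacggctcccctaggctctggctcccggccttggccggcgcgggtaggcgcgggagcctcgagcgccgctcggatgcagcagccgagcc
Motifs were searched on both strands of the 35116 promoters of the same length in the table. They were the core TGACG of the cyclic AMP response element, CRE (in 24.6% of all promoters), the whole CRE TGACGTCA, which contains it (1.85%), the AP-1 site TGANTCA (7.71%), the E-box CACGTG (7.26%), the antioxidant response core TGACNNNGC, whose first letters overlap those of the CRE (13.3%), the TATA box TATAAA (11.5%), the GC box GGGCGG (45.0%) and the NF-κB consensus (11.3%). PTGS2 held TATAAA with its first base at position -32 and TGACG on the opposite strand at positions -58 and 25, counted from 1 at the start. PTGER2 held TGACG at position -137, GGGCGG at position -49 and, on the opposite strand, at position -68, and the NF-κB consensus on the opposite strand at position -155. PTGER4 held GGGCGG 4 times and the NF-κB consensus, but none of the other motifs. A match is a run of letters and not evidence of binding, and the lack of a match does not show that a site is absent. Of the 10 genes, 9 have an entry in the promoter table, and PTGIS has none.

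The libraries held between 12095123 and 23166405 counted pairs. Levels are CPM, the counts as a share of a library size scaled by TMM, a factor per library that balances the bulk of genes, and levels of different genes are compared only per kb of exon. All 10 fibroblast markers were present, with a summed level of 25980 to 26340 CPM in control, 14732 to 16105 with 3 days of ICM, 12738 to 13034 with 6 days and 22676 to 23237 CPM in MetaICM. Of these 10, 8 were called lower after 3 days and 7 after 6 days of ICM than in control, by the thresholds given below. In MetaICM against control none was called lower and 1 higher. Among all genes tested, 2067 of 15692, 2738 of 15950 and 1430 of 15904 were called lower in these 3 comparisons. Of the markers of other cell types, EPCAM, CDH1, SFTPC, PECAM1 and CDH5 had at most 13 counts in any library, PTPRC and CD14 had 2 to 24 and 2 to 32, and CD3E had 0. The others were present, with 3 to 172 counts of KRT19, 26 to 92 of VWF, 13 to 39 of KDR and 51 to 445 of CD68. The summed level of 4 epithelial markers, mostly KRT19, was 3.81 to 5.77 CPM in control, 0.552 to 1.42 CPM across the ICM libraries and 7.86 to 7.88 CPM in MetaICM. The 4 endothelial markers, mostly VWF and KDR, summed to 3.40 to 4.22 CPM in control, 5.66 to 6.66 CPM across the ICM libraries and 2.04 to 2.87 CPM in MetaICM. The 4 leukocyte markers, mostly CD68, summed to 4.97 to 6.37 CPM in control, 18.1 to 22.0 CPM across the ICM libraries and 14.1 to 14.6 CPM in MetaICM. Through KRT19, the epithelial sum has the order of PTGER2 described below, low with ICM and high in MetaICM. Through VWF and KDR, the endothelial sum has that of PTGS2. The scarce markers did not all share these orders. CDH1 rose from a mean of 0.160 CPM in control to 0.293 and 0.428 CPM after 3 and 6 days of ICM, and PECAM1 was highest in MetaICM (0.223 CPM). The sums thus follow single genes more than cell types, and their part in the results was not tested. In bulk libraries, fewer cells that transcribe a gene and less RNA from each of them cannot be told apart.

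PTGIS was lower than control at both ICM times, and its level in MetaICM lay between those of the ICM times. PTGS2 and PTGS1 were lower in MetaICM than in every other condition, while their increases with ICM were less firm, since PTGS1 stayed under the fold threshold and the PTGS2 calls were lost without control replicate 2 and with DESeq2. PTGER2 was lower than control at both ICM times and higher in MetaICM than at either, while its difference between MetaICM and control was not called. A gene was called at an adjusted p below 0.05 (edgeR's quasi-likelihood test, Benjamini-Hochberg adjustment over all genes tested) and an absolute log2FC above 0.6. HPGD had too few counts to be tested. Of the other 9 genes, 3 were called after 3 days of ICM against control, where 22.0% of all 15692 tested genes were called. After 6 days it was again 3 of 9, against 30.5% of 15950 genes, and between 6 and 3 days it was 2 of 9, against 8.07% of 15845 genes. With PTGIS left untested, 2 of 8 were called in MetaICM against control (16.4% of 15904 genes), 4 of 8 in MetaICM against 3 days (23.4% of 16209 genes) and 3 of 8 in MetaICM against 6 days (27.7% of 16036 genes). The median log2FC against control was 0.22 after 3 days and 0.07 after 6 days over the 9 genes, and 0.02 in MetaICM over the 8 genes without PTGIS, beside 0.0094, -0.0013 and -0.0011 for all genes tested. The comparisons against control share the control libraries.

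**Figure D1:**
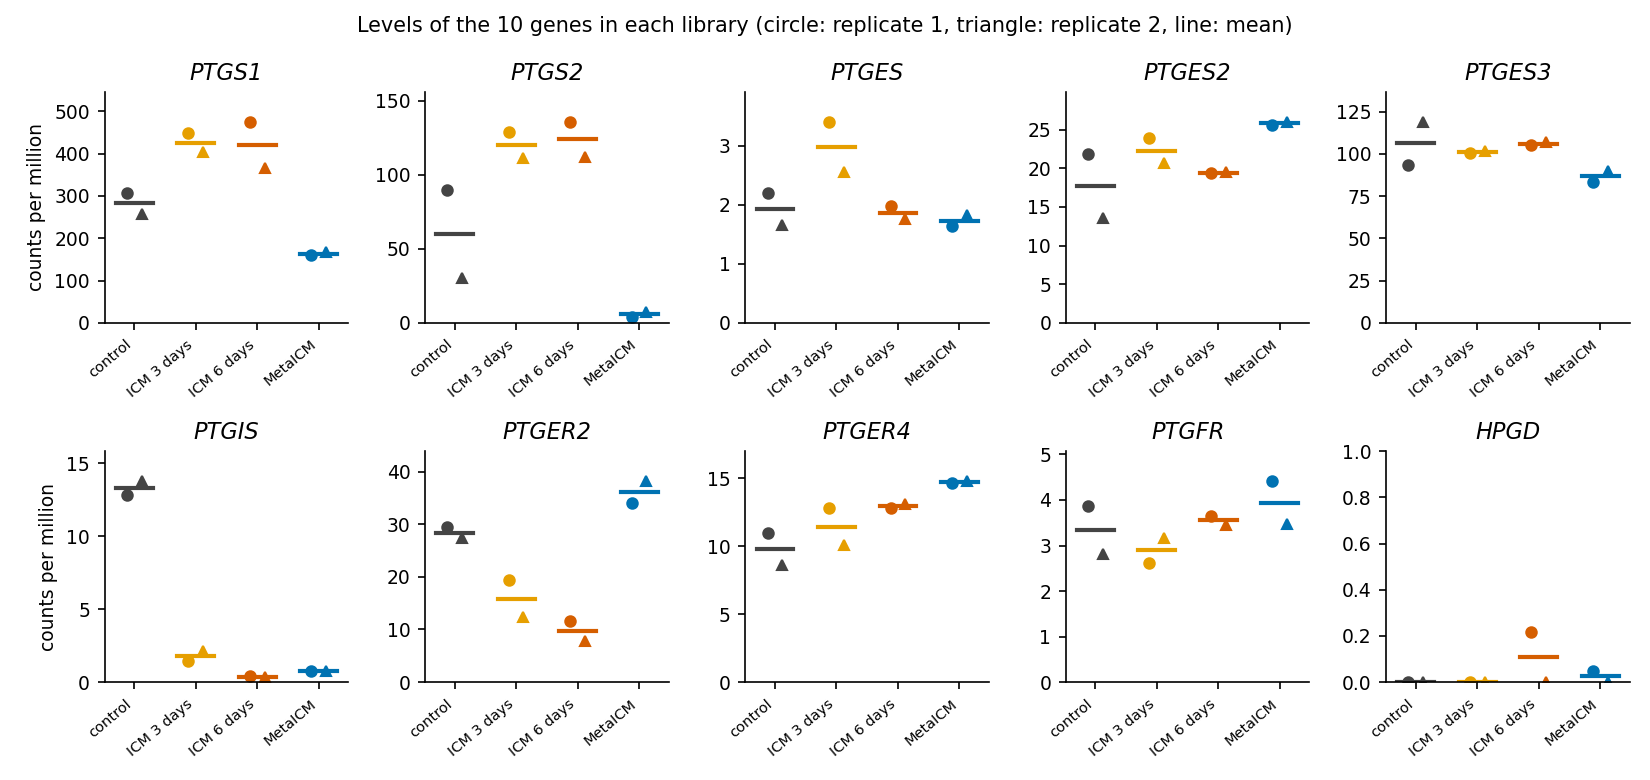
Level of each of the 10 genes in every library, in CPM on a linear axis from 0 with its own scale per gene. Points are the 2 libraries of a condition and lines their mean. PTGIS is near the axis in all treated conditions, PTGS2 falls from 112 to 135 CPM with ICM to 3.91 and 7.52 CPM in MetaICM, and PTGER2 shows the reverse order.

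PTGS2, the inducible cyclooxygenase, is on chromosome 1 of hg19 from 186640923 to 186649555, and its promoter is the first of the sequences printed above. It stood at 90.0 and 30.2 CPM in the control libraries, at 129 and 112 with 3 days of ICM, at 135 and 112 with 6 days and at 3.91 and 7.52 CPM in MetaICM. Both MetaICM libraries lay below all others, and all 4 ICM libraries lay above both controls. The controls differed from each other more than any other pair of this gene. In MetaICM, PTGS2 fell by 3.39 on the log2 scale against control (standard error 0.45, adjusted p = 0.00086 by edgeR), 10.5-fold. It was 20.7-fold below ICM 3 days (log2FC -4.37, standard error 0.18, adjusted p = 2.03e-10 by edgeR) and 21.3-fold below ICM 6 days (log2FC -4.41, standard error 0.15, adjusted p = 1.01e-15 by edgeR). These 3 differences were called in every alternative run, and the log2FC against control was -3.95 with control replicate 2 left out and -2.38 with control replicate 1 left out. Against control, PTGS2 was called higher after 3 days (log2FC 0.99, standard error 0.33, adjusted p = 0.041 by edgeR) and after 6 days of ICM (log2FC 1.03, standard error 0.35, adjusted p = 0.037 by edgeR), but these calls rest on control replicate 2. Without that library the log2FC was 0.40 and 0.46, below the threshold of 0.6, and DESeq2 on all 4 libraries gave adjusted p = 0.379 and 0.279. The 3-day call was also lost without ICM 3 days replicate 1 (adjusted p = 0.077 by edgeR), and the 6-day call when every gene with a count was tested (adjusted p = 0.110 by edgeR). The step from 3 to 6 days was 0.04 (standard error 0.10, adjusted p = 0.852 by edgeR).

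PTGS1, the cyclooxygenase that most cells make constantly, is on chromosome 9 from 125132812 to 125157982. It was at 308 and 257 CPM in control, 448 and 404 with 3 days of ICM, 474 and 365 with 6 days and 160 and 168 CPM in MetaICM. Control, ICM and MetaICM libraries did not overlap, with ICM highest and MetaICM lowest, while the 3-day and 6-day libraries overlapped. MetaICM was lower than control (log2FC -0.79, standard error 0.12, adjusted p = 0.0017 by edgeR), than ICM 3 days (log2FC -1.38, standard error 0.09, adjusted p = 1.19e-08) and than ICM 6 days (log2FC -1.36, standard error 0.09, adjusted p = 9.46e-11). With ICM, PTGS1 stood 1.51-fold above control after 3 days (log2FC 0.59, standard error 0.13, adjusted p = 0.0060 by edgeR) and 1.48-fold after 6 days (log2FC 0.57, standard error 0.14, adjusted p = 0.0095 by edgeR). Both values pass the p threshold and lie just under the fold threshold, and scaling to library totals put them over it, at 0.67 and 0.62. So did leaving out control replicate 1 (0.73 and 0.70), ICM 3 days replicate 2 (0.68) or ICM 6 days replicate 2 (0.75). Leaving out control replicate 2 lowered both values to 0.45. Without ICM 3 days replicate 1 the 3-day value was 0.50, and without ICM 6 days replicate 1 the 6-day value was 0.37.

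Per kb of exon, PTGS1 was the higher of the cyclooxygenases in every library. The level of PTGS2 per kb was 0.369 and 0.148 of that of PTGS1 in the control libraries, 0.363 and 0.349 after 3 days of ICM, 0.361 and 0.388 after 6 days and 0.0309 and 0.0567 in MetaICM. The ratio was thus alike in all 4 ICM libraries and control replicate 1, lower in control replicate 2 and lowest in MetaICM.

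**Figure D2:**
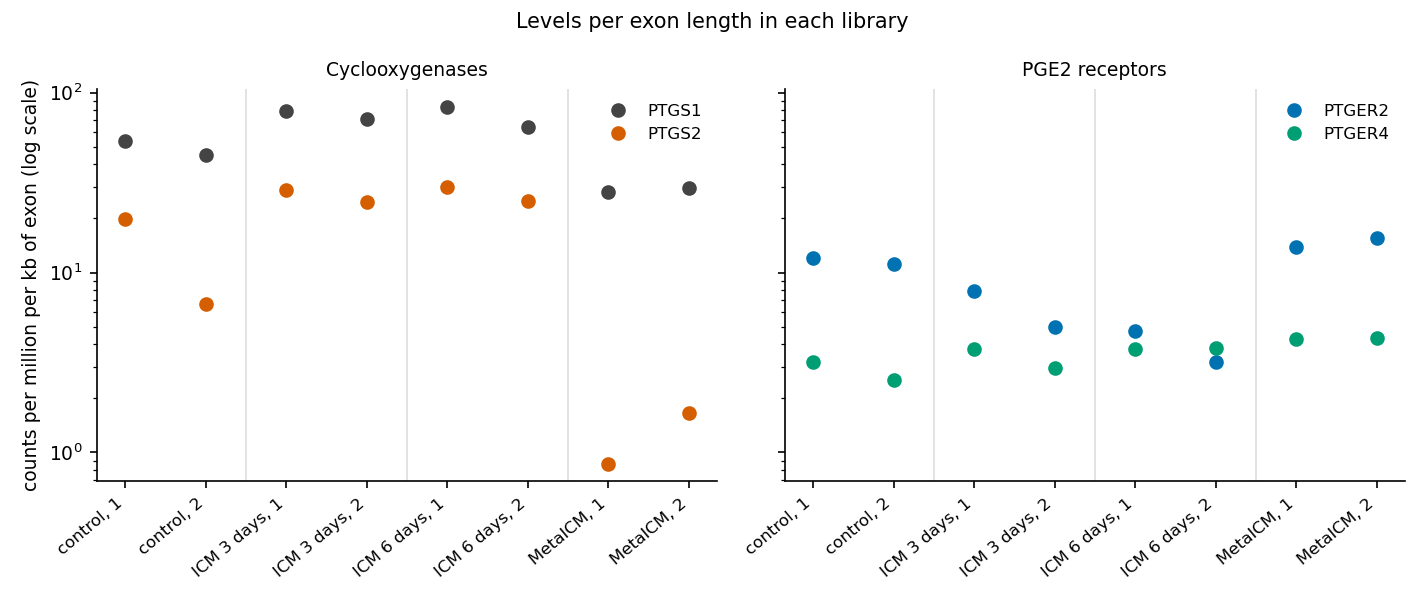
Levels of the cyclooxygenases (left) and of the prostaglandin E2 receptors (right) in each of the 8 libraries, in CPM per kb of exon on a log axis, 1 point per gene and library. PTGS2 drops to 0.868 and 1.67 CPM per kb in MetaICM, and PTGER2 comes down to the level of PTGER4 after 6 days of ICM.

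Of the 3 prostaglandin E synthases, PTGES was called in 1 of the 6 comparisons and the others in none. PTGES, the inducible synthase of the membrane that is coupled to PTGS2 in many cells, is on chromosome 9 from 132500628 to 132515321 and was scarce. It had 2.20 and 1.66 CPM in control, 3.40 and 2.56 with 3 days of ICM, 1.99 and 1.75 with 6 days and 1.63 and 1.82 CPM in MetaICM. The 3-day libraries were the highest and did not overlap with any other condition. The 3-day level was 1.54-fold that of control (log2FC 0.62, adjusted p = 0.170 by edgeR), which was not called. MetaICM was lower than ICM 3 days (log2FC -0.80, standard error 0.27, adjusted p = 0.029 by edgeR), a call that was lost with DESeq2 (adjusted p = 0.169) and without ICM 3 days replicate 1 (log2FC -0.56) or either MetaICM library. The step from 3 to 6 days was of similar size (log2FC -0.70, standard error 0.29) but was called only without ICM 3 days replicate 2 (adjusted p = 0.096 by edgeR with all libraries, 0.035 without it).

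PTGES2, a second synthase that is bound to the Golgi, is on chromosome 9 from 130882972 to 130890741. Its level was 21.9 and 13.5 CPM in control, 23.9 and 20.6 with 3 days of ICM, 19.4 and 19.5 with 6 days and 25.7 and 26.0 CPM in MetaICM. The MetaICM libraries were the highest, and the controls spanned a wider range than all ICM libraries together. MetaICM was above ICM 6 days (log2FC 0.41, standard error 0.10, adjusted p = 0.0011 by edgeR), which is under the fold threshold. Against control the log2FC was 0.53 (adjusted p = 0.066 by edgeR), and it moved to 0.94 or 0.24 when control replicate 1 or 2 was left out.

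PTGES3, the cytosolic synthase that is also the HSP90 co-chaperone p23, is on chromosome 12 from 57057125 to 57082192. It was the most even gene of the set, with 93.6 and 119 CPM in control, 100.2 and 102 with 3 days, 105 and 107 with 6 days and 83.5 and 90.1 CPM in MetaICM. The MetaICM libraries were the lowest, 1.22-fold below ICM 6 days (log2FC -0.29, standard error 0.07, adjusted p = 0.0023 by edgeR), under the fold threshold. PTGES3 has processed copies elsewhere in the genome, and it is not known whether pairs that map to several places were removed, so its counts are less certain than those of the other genes. Per kb of exon, PTGES3 was the highest of the prostaglandin E synthases, at 24.6 to 34.9 CPM per kb, above PTGES2 at 6.62 to 12.7 and PTGES at 0.934 to 1.94 CPM per kb.

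PTGIS, which makes prostacyclin from prostaglandin H2, is on chromosome 20 from 48120411 to 48184674. It had 12.9 and 13.8 CPM in control (216 and 166 pairs), 1.43 and 2.16 CPM after 3 days of ICM (31 and 32 pairs), 0.430 and 0.319 CPM after 6 days (8 and 6 pairs) and 0.743 and 0.739 CPM in MetaICM (15 and 17 pairs). The conditions did not overlap, and the order was control, 3 days, MetaICM, 6 days. In MetaICM, the value by which the gene was chosen, the level was 17.8-fold below control (log2FC -4.15), 2.35-fold below ICM 3 days (log2FC -1.23) and 1.96-fold above ICM 6 days (log2FC 0.97). The level was thus lower in the 6-day libraries than in the MetaICM libraries, a difference that was not tested. Against control, PTGIS fell by 2.92 on the log2 scale at 3 days (standard error 0.26, adjusted p = 4.89e-06 by edgeR) and further after 6 days (log2FC -5.13, standard error 0.28, adjusted p = 4.08e-07). These comparisons share their controls with the contrast that chose PTGIS. The fall from 3 to 6 days uses none of those libraries and was 4.63-fold (log2FC -2.21, standard error 0.45, adjusted p = 0.0016 by edgeR), with a range of -2.50 to -1.93 when each library was left out. DESeq2 gave no adjusted p for this gene there, because its counts are low. Both 6-day libraries, with 8 and 6 pairs, lay under the count minimum used to keep genes for testing. PTGIS thus entered the tests of 6 days against control and against 3 days only through the libraries where it was higher. It dropped out of both when that minimum was required in every library. The p-values of these tests carry that selection.

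The genes most like PTGIS in their log2 levels over the 8 libraries were BGN, RUNX1T1 and THBS2, among 653 genes with a mean of at least 5 CPM and a range of at least 2 on the log2 scale. Pearson's r was 0.987, 0.973 and 0.973. BGN, which encodes the matrix proteoglycan biglycan, went from a mean of 36.6 CPM in control to 9.75 with 3 days, 3.82 with 6 days and 6.17 CPM in MetaICM. For PTGS2 the nearest were TNFAIP6 (r = 0.976), SEL1L3 (r = 0.960) and TMEM156 (r = 0.959). TNFAIP6, which encodes the hyaluronan-binding protein TSG-6, had means of 9.82, 24.5, 37.4 and 1.47 CPM in the same order. The libraries of a condition share that condition, so these values describe likeness across 4 conditions and carry no test.

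PTGER2, the EP2 receptor for prostaglandin E2 that raises cyclic AMP, is on chromosome 14 from 52781030 to 52795313. It was at 29.4 and 27.3 CPM in control, 19.4 and 12.3 with 3 days of ICM, 11.7 and 7.81 with 6 days and 34.1 and 38.1 CPM in MetaICM. No 2 conditions overlapped, with MetaICM highest and 6 days of ICM lowest. PTGER2 fell by 0.83 on the log2 scale at 3 days (standard error 0.20, adjusted p = 0.0092 by edgeR) and had a log2FC of -1.55 at 6 days (standard error 0.19, adjusted p = 0.00011 by edgeR). The 3-day call was lost without ICM 3 days replicate 2, with a log2FC of -0.53. From 3 to 6 days PTGER2 fell further (log2FC -0.73, standard error 0.20, adjusted p = 0.016 by edgeR), but not without ICM 3 days replicate 1 (-0.33) or ICM 6 days replicate 2 (-0.46). MetaICM was 2.25-fold above ICM 3 days (log2FC 1.17, standard error 0.16, adjusted p = 3.58e-05 by edgeR) and 3.71-fold above ICM 6 days (log2FC 1.89, standard error 0.13, adjusted p = 8.83e-11 by edgeR), and both calls held in every alternative. Against control, MetaICM was higher by 0.34 (standard error 0.13), which was not called (adjusted p = 0.068 by edgeR).

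PTGER4, the EP4 receptor, which also raises cyclic AMP, is on chromosome 5 from 40680017 to 40693837. It had 10.9 and 8.62 CPM in control, 12.8 and 10.1 with 3 days, 12.8 and 13.1 with 6 days and 14.7 and 14.8 CPM in MetaICM. The MetaICM libraries were the highest and the controls overlapped with the 3-day libraries. The log2FC of MetaICM against control was 0.58 (standard error 0.17, adjusted p = 0.029 by edgeR), just under the fold threshold. It was called with library totals (0.605) but not with DESeq2 (adjusted p = 0.064). Without control replicate 1 the log2FC was 0.77, and without control replicate 2 it was 0.43. PTGER4 was not called in the other comparisons. The level of PTGER2 per kb of exon was 3.76 and 4.43 times that of PTGER4 in the control libraries. The ratio was 2.11 and 1.71 after 3 days of ICM, 1.27 and 0.832 after 6 days, and 3.25 and 3.61 in MetaICM. PTGER4 was thus the higher receptor in 1 library of 8, an ICM 6 days library.

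PTGFR, the receptor for prostaglandin F2 alpha, is on chromosome 1 from 78956659 to 79006386 and was low throughout. Its level was 3.87 and 2.82 CPM in control, 2.62 and 3.17 with 3 days, 3.65 and 3.46 with 6 days and 4.41 and 3.48 CPM in MetaICM. The control libraries overlapped with those of every other condition, and PTGFR was called in none of the 6 comparisons. Its adjusted p was between 0.139 and 0.855.

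HPGD, the enzyme that inactivates prostaglandins, is on chromosome 4 from 175411326 to 175444049. It had 4 pairs in ICM 6 days replicate 1, 1 pair in MetaICM replicate 1 and 0 pairs in the other 6 libraries. A count of 0 allows up to 3 pairs, which is 0.130 to 0.249 CPM in these libraries, for counting error only. HPGD was thus at or near that limit everywhere, and no fold change is given.

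Neighbouring and related genes were scarce. PACERR, a noncoding RNA transcribed away from the PTGS2 start on the other strand, had 9 and 0 pairs in control, 15 and 6 after 3 days, 14 and 7 after 6 days and 1 and 6 in MetaICM. It shares no exon base with PTGS2, but pairs were counted without regard to strand. It was tested only between 6 and 3 days of ICM, where its log2FC was -0.02 (adjusted p = 0.983 by edgeR). PTGES2-AS1 had 2 to 23 pairs and PTGES3L 5 to 20 pairs in any library, and neither was called where it could be tested.

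**Figure D3:**
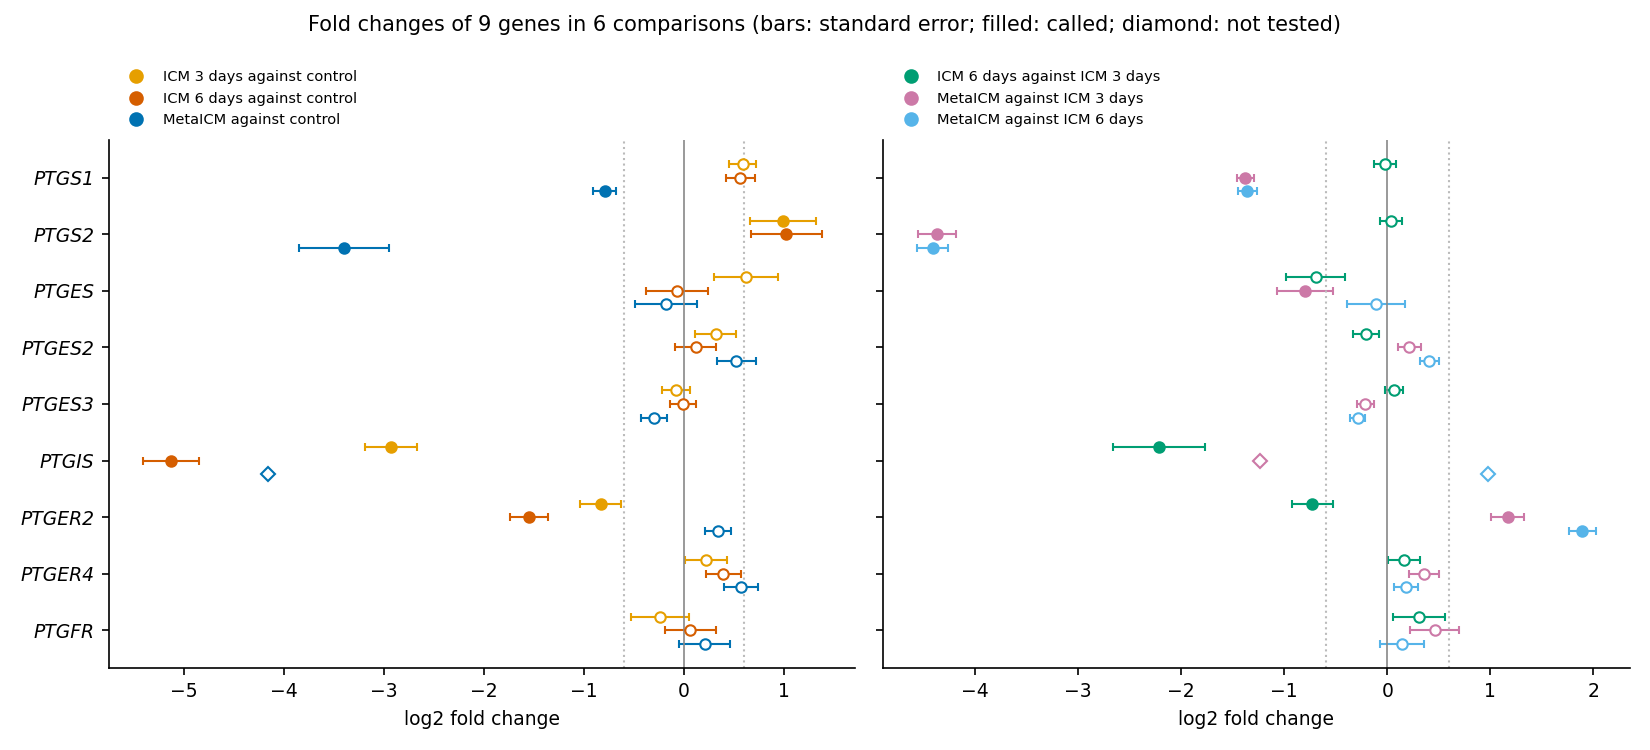
Log2FC of the 9 genes other than HPGD in the 6 comparisons, with standard errors as bars. Filled points were called, open points were not, diamonds are the untested MetaICM values of PTGIS, and dotted lines mark 0.6 in either direction. PTGS2 in MetaICM lies at -3.39 to -4.41. PTGER2 lies at -0.83 and -1.55 with ICM against control (left panel) and at 1.17 and 1.89 in MetaICM against ICM (right panel). The panels differ in their baseline, and PTGER2 in MetaICM against control is at 0.34 and not called.

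The other genes of the pathway were taken as 5 lists with 52 genes, of which 37 or 38 could be tested in a comparison. Of these, 11 were called higher and 3 lower after 3 days of ICM (36.8% called, beside 22.0% of all genes), and 15 higher and 4 lower after 6 days (51.4%, beside 30.5%). In MetaICM against control, 4 were higher and 4 lower (21.1%, beside 16.4%). MetaICM against 6 days gave 4 higher and 12 lower (42.1%, beside 27.7%), and against 3 days 5 higher and 10 lower (39.5%, beside 23.4%). Between 6 and 3 days 3 genes of 38 were called (7.89%, close to the 8.07% of all genes). The lists were chosen with earlier results of these data known, so the shares called, here and below, are a description and no test.

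A list covers genes that release or recycle arachidonic acid or regulate its release. Of these genes, 3 of 12 tested were higher after 3 days and 7 of 11 after 6 days of ICM, and none was lower. These are 25.0% and 63.6% of the list, beside 8.85% and 13.3% of all genes called higher, or 22.0% and 30.5% called in either direction. In MetaICM against control, 4 of 12 were higher (MBOAT7, MGLL, PLA2G4C and ANXA1) and 1 was lower (PLA2G4A). The share called there was 41.7%, beside 16.4% of all genes. PLA2G4A, the cytosolic phospholipase that frees arachidonic acid, had 14.3 ± 1.77 CPM (SD, n = 2) in control, 26.3 ± 1.77 after 3 days, 33.5 ± 0.806 after 6 days and 8.31 ± 0.0178 in MetaICM. Its log2FC against control was 0.87, 1.21 and -0.80 (adjusted p = 0.0019, 9.79e-05 and 0.0071 by edgeR). PLA2G4A was thus high with ICM and low in MetaICM, the order seen for PTGS2 and PTGS1. ACSL4, which loads arachidonic acid onto coenzyme A, rose by 0.94 after 3 days and by 1.32 after 6 days of ICM on the log2 scale (adjusted p = 0.00020 and 1.93e-05 by edgeR). It was lower in MetaICM than after 6 days (log2FC -1.55, adjusted p = 1.21e-12 by edgeR), while its log2FC against control was -0.23 and not called (adjusted p = 0.168). FAAH, a hydrolase of fatty acid amides, was called after 6 days (log2FC 1.11, adjusted p = 0.025 by edgeR).

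Of 6 other prostanoid synthases tested, 4 were higher and 1 lower at both ICM times, and 1 was lower in MetaICM than in control. The share called was 83.3% at both ICM times, beside 22.0% and 30.5% of all genes. In MetaICM it was 16.7%, close to the 16.4% of all genes. AKR1B1, an aldose reductase that can make prostaglandin F2 alpha, averaged 103 ± 39.8 CPM (SD, n = 2) in control, 771 ± 82.4 with 3 days and 515 ± 23.9 with 6 days of ICM. It was at 99.8 ± 5.63 CPM in MetaICM. Its log2FC against control was 2.90 and 2.31 with ICM (adjusted p = 1.11e-06 and 1.42e-05 by edgeR). AKR1C3, the prostaglandin F synthase, rose by 2.63 and 2.22 on the log2 scale (adjusted p = 2.08e-05 and 0.00011 by edgeR), but it has near-identical relatives whose reads can be misplaced. PTGDS, a prostaglandin D synthase, fell by 1.57 after 3 days, by 2.24 after 6 days and by 1.01 in MetaICM (adjusted p = 0.012, 0.0013 and 0.046 by edgeR), from 2.68 ± 0.0823 CPM (SD, n = 2) in control. It was the synthase of this list that was called lower than control in all 3 treated conditions. Its level there was low, at 0.940 CPM after 3 days, 0.562 after 6 days and 1.34 in MetaICM (32, 21 and 57 pairs per condition). PTGIS also lay below control in all 3, with its MetaICM value untested.

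Of 7 other genes of receptors or their regulation tested, no more than 1 in each direction was called against control. The share called was 28.6% after 3 days, 28.6% after 6 days and 14.3% in MetaICM (PTGFRN). Among all genes it was 22.0%, 30.5% and 16.4%. PTGDR2, a receptor for prostaglandin D2, rose from 0.778 ± 0.162 CPM (SD, n = 2) to 7.76 ± 0.567 after 3 days and 4.71 ± 0.716 after 6 days of ICM, and was at 1.04 ± 0.00162 CPM in MetaICM. Its log2FC was 3.27 and 2.55 with ICM (adjusted p = 8.50e-06 and 0.00014 by edgeR), and it fell by 0.72 from 3 to 6 days (adjusted p = 0.015 by edgeR). TBXA2R, the thromboxane receptor, was higher in MetaICM than after 3 days (log2FC 1.12, adjusted p = 0.016 by edgeR) or 6 days of ICM (log2FC 1.93, adjusted p = 0.00016 by edgeR), at levels below 1.9 CPM. PPARG, a nuclear receptor that binds prostaglandin D2 products, was lower after 3 days (log2FC -0.61, adjusted p = 0.029 by edgeR) and rose from 3 to 6 days (log2FC 0.76, adjusted p = 0.0013 by edgeR). Its largest change was in MetaICM against 3 days (log2FC 1.20, adjusted p = 1.03e-05 by edgeR). In MetaICM against control its log2FC was 0.58 (adjusted p = 0.015 by edgeR), under the fold threshold.

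All 7 genes of transport and breakdown were tested, and 3 were higher after 3 days and after 6 days of ICM. The share called was 42.9% after 3 days and 57.1% after 6 days, beside 22.0% and 30.5% of all genes. SLCO3A1, a related transporter, was lower after 6 days (log2FC -0.73, adjusted p = 0.0061 by edgeR). PTGR1, which reduces 15-keto prostaglandins, the products of HPGD, averaged 56.2 ± 13.4 CPM (SD, n = 2) in control, 637 ± 26.2 with 3 days and 693 ± 2.39 with 6 days of ICM, and was at 70.3 ± 5.10 CPM in MetaICM. Its log2FC was 3.50 and 3.62 (adjusted p = 3.20e-08 and 1.11e-07 by edgeR). SLCO2A1, the transporter that takes prostaglandins back into cells, rose by 1.43 and 0.86 with ICM (adjusted p = 0.0021 and 0.030 by edgeR) and was 3.04-fold lower in MetaICM than in control (adjusted p = 0.0071 by edgeR). CBR3, a carbonyl reductase, rose by 1.46 and 1.77 with ICM (adjusted p = 0.0023 and 0.00027 by edgeR). Of the 14 genes of the lipoxygenase and leukotriene branch, 6 were tested. The share called against control was 16.7% at both ICM times, beside 22.0% and 30.5% of all genes. GGT5, which trims leukotriene C4, was the one that was called. Its log2FC was -2.58 and -3.05 with ICM (adjusted p = 5.39e-05 and 2.54e-05 by edgeR), from 6.01 ± 0.417 CPM (SD, n = 2) in control.

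**Figure D4:**
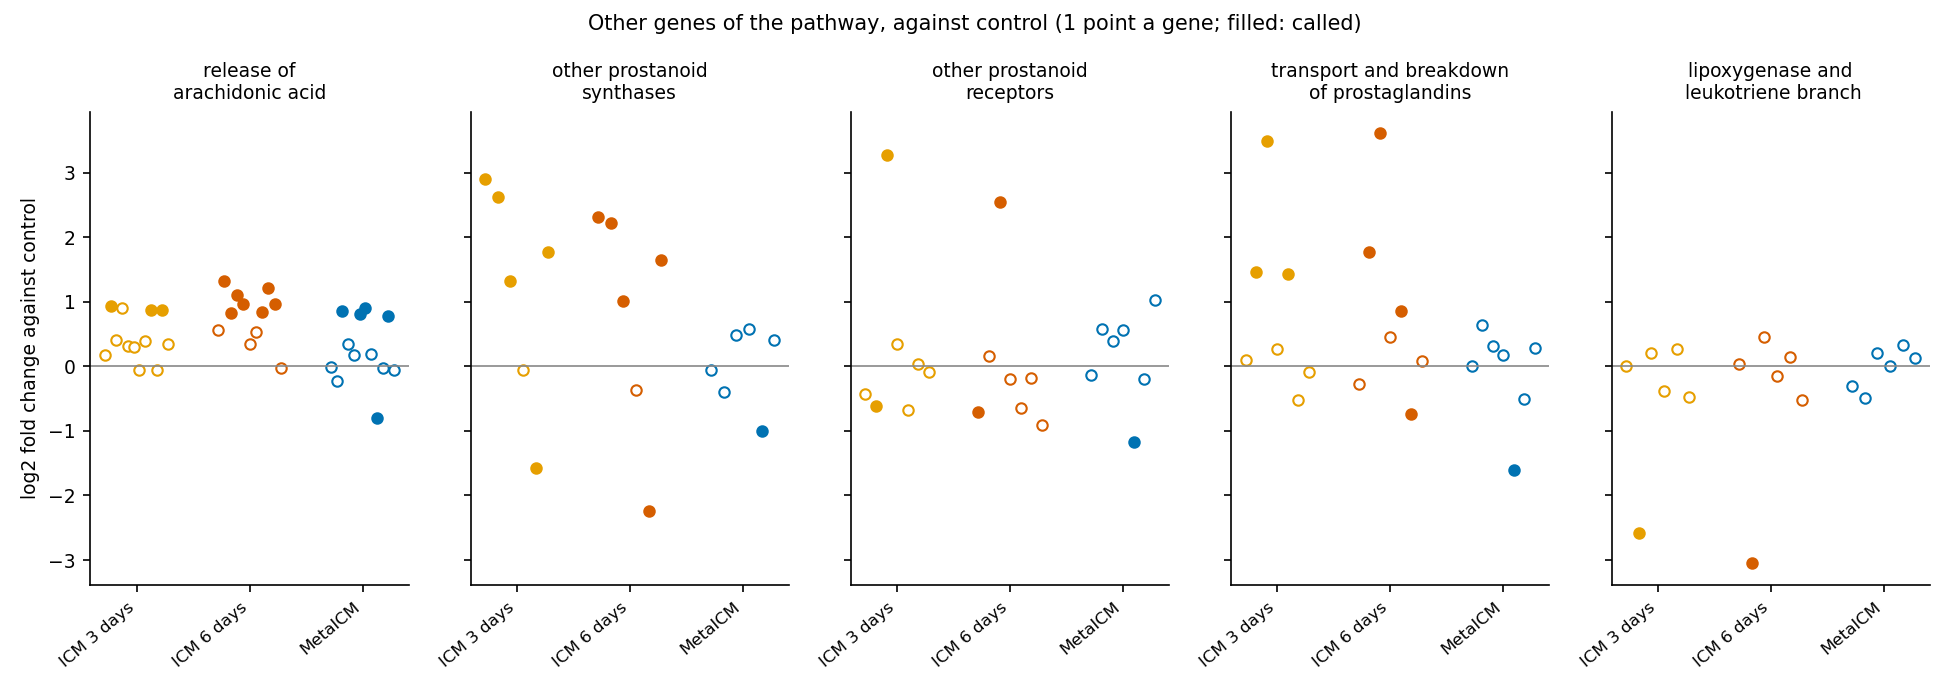
Log2FC against control of the tested genes of the 5 other lists, 1 point per gene, for ICM 3 days, ICM 6 days and MetaICM. Filled points were called. The largest increases with ICM are PTGR1 (3.50 and 3.62), PTGDR2 (3.27 and 2.55) and AKR1B1 (2.90 and 2.31), and the 3 sit near 0 in MetaICM.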

How the data were processed

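Counts were deposited by the authors, who used STAR (2.6.0c, per the labels) on the hg19 build (GRCh37) and then featureCounts (1.6.3) for pairs on RefSeq exons, both strands together, without normalization. The option for primary alignments was set, which by itself also counts the primary alignment of a pair that maps to several places. Whether such pairs were removed beforehand is not given for these libraries in the sources used here, though the methods speak of unique counts for mRNA-Seq. The labels name poly(A) selection, and intronic counts were not used here. Each pair of conditions (4 libraries) was fitted with edgeR (4.0.16, R 4.3.3), using TMM factors, genes kept by filterByExpr (count minimum 10), quasi-likelihood tests and p-values adjusted by Benjamini-Hochberg over all genes tested. The fits were checked on simulated data. Every gene of the set is given, and from each pathway list the 3 genes with the largest log2FC among those called in any comparison (PTGIS and PTGS2 also with the 3 genes most like them, on log2 of CPM plus 0.5). The genes and lists were chosen with earlier results of these data known. Alternatives were DESeq2 (1.42.0), other size factors, filters and thresholds, all 8 libraries in one fit, a replicate block and each library left out. With 2 libraries against 2, an exact permutation test cannot give p below 0.333. Tables and figures were made with Python 3.11.15, numpy 2.4.6, pandas 2.3.3 and matplotlib 3.10.9.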

Additional observations from a re-analysis of the deposited data

Results flagged for a closer look

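The effects of the treated conditions on several genes differed from each other by edgeR's quasi-likelihood test of one treated condition against another, in which the controls play no part. The effect of ICM was larger after 6 than after 3 days for PTGIS (log2FC -2.21 between the times) and for PTGER2 (-0.73). MetaICM differed from ICM 3 days for PTGS2 (-4.37), PTGS1 (-1.38), PTGES (-0.80) and PTGER2 (1.17), and from ICM 6 days for PTGS2 (-4.41), PTGS1 (-1.36) and PTGER2 (1.89). The adjusted p-values and the libraries on which the PTGER2 and PTGES values depend are given above. With 2 libraries per condition, no single library could be tested as standing apart.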

How the results depend on the processing

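Across the alternatives, 31 tested log2FC values of the 9 genes were followed. These are the values with edgeR's unadjusted p below 0.05, and the steps from 3 to 6 days of PTGS1 and PTGS2. Of 437 further results, 399 kept their direction and their side of the thresholds, 17 lost the call, 17 gained it and 4 turned sign. Runs with other thresholds reuse the main fit, so in them the call can change but not the direction. PTGIS between 6 and 3 days had no adjusted p with DESeq2 and is left out of these counts. The 3 untested MetaICM values of PTGIS kept their direction in 36 recomputations, 2 of which moved by more than the spread of its libraries. The 4 belong to the uncalled steps from 3 to 6 days of PTGS1 (-0.21 to 0.15 with each library left out; 0.058 without ICM 3 days replicate 1) and PTGS2 (-0.093 to 0.16; -0.073 without ICM 3 days replicate 2). The number of genes of the set called was 3 after 3 days against control (2 to 5 with each library left out, 5 without control replicate 1), 3 after 6 days (2 to 4), 2 between 6 and 3 days (1 to 3), 2 in MetaICM against control (2 to 4, 4 without control replicate 1), 4 against 3 days (3 to 4) and 3 against 6 days (3 in each). Between 6 and 3 days it was 1 with DESeq2, with at least 10 counts in every library (both without PTGIS, which had no adjusted p or was removed) and at adjusted p below 0.01. With no minimum fold it was 5 in MetaICM against 6 days, where PTGES2 and PTGES3 were added. Other pathway genes called were 11 between 6 and 3 days with no minimum fold, and 4 to 11 in MetaICM against control with each library left out. All genes called between 6 and 3 days were 850 with DESeq2. With no minimum fold they were 3061 between 6 and 3 days, 4294 in MetaICM against control, 6957 against 3 days and 8576 against 6 days. In MetaICM against control they were 1532 at adjusted p below 0.01. With each library left out they were 2301 to 4068 after 3 days against control and 1049 to 4086 in MetaICM against control. A condition left with 1 library was assumed to vary like the other. The causes of these shifts were not tested.

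Same-numbered libraries are not stated to share a culture or day, and the correlation of their deviations was between -0.135 and 0.227. With the replicate number as a block, the genes of the set called stayed at 3, 3, 2, 2, 4 and 3, and all genes called went to 3915 and 5116 after 3 and 6 days against control, 1450 between 6 and 3 days and 2823, 3799 and 4484 for MetaICM against control, 3 days and 6 days. For MetaICM against 3 days, the comparison with the lowest correlation, crossing the numbers (an alternative chosen after seeing the data) gave 4 genes of the set and 3956 genes in all. PTGIS had 6 to 32 pairs in each treated library and PTGES 20 to 74 pairs, which limits how closely their fold changes are known.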
